A study of Rattus norvegicus with 12 samples.

Results

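The genes for the colony-stimulating factors, the interleukin-6 family cytokines and interleukin-10 were followed in rat Schwann cells grown with or without macrophages. They were picked by gene name as 9 of the 30957 genes in the deposited table: Csf1, Csf2, Csf3, Il6, Il11, Lif, Clcf1, Il10 and Tslp. Messenger RNA was sequenced in 12 libraries, 3 for each of 4 groups, with 16555215 to 21506669 gene counts per library. The first group was Schwann cells alone, titled Rsc96 but named HSC96 in the column headers. It was taken to be RSC96, an immortalised rat Schwann cell line. The other groups were Schwann cells cultured with monocyte-derived macrophages (MDM), with tumour-associated macrophages (TAM) obtained by exposing macrophages to the supernatant of pancreatic ductal adenocarcinoma lines. BxTAM were made with the human line BxPC-3 and MiaTAM with the human line MIA PaCa-2. The MDM libraries are titled PBMC, also in the column headers. The labels mark the cells alone and the MDM co-culture as untreated, and all 4 groups are labelled rat Schwann cells. Neither the species of the macrophages, nor how they were kept apart from the Schwann cells, nor the culture time is given in the sources used here. Nothing in the labels says whether replicate libraries are separate cultures. The p-values therefore measure the spread between these samples only, and that spread may be technical.

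Colony-stimulating factors are secreted proteins that act on myeloid cells: Csf1 (M-CSF) acts on monocytes and macrophages, Csf2 (GM-CSF) on granulocytes, macrophages and dendritic cells, and Csf3 (G-CSF) on neutrophils. Il6, Il11, Lif and Clcf1 encode cytokines that signal through the shared receptor subunit gp130, the product of Il6st, to JAK kinases and STAT3, and in peripheral nerve Lif and Il6 are known as injury cytokines. Interleukin-10 also acts through STAT3 and restrains inflammatory gene expression, while Tslp is an epithelial cytokine that acts on dendritic cells through its receptor chain Crlf2 and Il7r.

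The labelled cell type was checked first. Of the Schwann cell markers listed, 12 were in the table and their summed level was 119.3 to 133.9 CPM in cells alone, 215.2 to 246.4 with MDM, 158.2 to 166.1 with BxTAM and 156.0 to 169.8 with MiaTAM. CPM, the usual unit of counts relative to library size, were computed after scaling of the libraries by trimmed mean of M-values (TMM). Most of that sum was Ncam1, at a mean of 107 CPM in cells alone and 196 CPM with MDM. Erbb3 (7.13 CPM in cells alone) and Egr2 (5.87 CPM) were detected at low levels, and both means were 12.9 CPM with MDM. Gfap went the other way, with means of 2.84 CPM in cells alone and 1.22 CPM with MDM. The defining markers Sox10, with 1 count over 12 libraries, S100b, with 43, and Cdh19, with 0, were nearly absent, so the cells are called Schwann cells by their label. Over 20 macrophage markers the summed level was 9.69 to 11.1 CPM in cells alone, 16.4 to 17.9 with MDM, 19.6 to 20.1 with BxTAM and 22.2 to 23.7 with MiaTAM. Of these 20 markers, 9, 5, 7 and 6 had 0 counts in the 4 groups in that order. In cells alone 2 reached a mean of 1 CPM (Cd14 and Csf1r), and in each co-culture 4 did (also Cd68 and Cd74). By the tests described below, 5 of 6 tested macrophage markers were higher in each co-culture than in cells alone, and 0 were lower. Of all tested genes, 32.0% were higher with MDM, 30.0% with BxTAM and 31.4% with MiaTAM. The leukocyte gene Ptprc had 3 counts in 12 libraries, and Tyrobp, C1qa and Marco had 0 (upper limit 0.0136 CPM, from 3 counts in all libraries together, for counting error only). The summed level of 9 lymphocyte markers stayed at or under 1.69 CPM in every library. The summed level of 6 fibroblast markers was 388.9 to 399.5 CPM in cells alone and 442.9 to 535.8 CPM in the co-cultures, with Dcn and Lum at 0. In cells alone the means were 264 CPM for Thy1, 93.6 for Pdgfra, 19.5 for Pdgfrb and 16.9 for Col1a1. Col1a1 stood at 73.6 CPM with MDM, 50.65 with BxTAM and 74.9 with MiaTAM, while Pdgfra with MiaTAM was 91.4. The part of these marker levels in the cytokine values was not tested. In bulk libraries, fewer cells of a type and less RNA per cell cannot be told apart.

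Within these cells the cytokine genes covered a wide range of levels. On the deposited FPKM scale, which divides counts by gene length and library total and so allows levels of different genes to be set side by side, the order in cells alone was Csf3 (65.7 ± 1.82, mean ± SD, n = 3), Csf1 (42.9 ± 0.380), Il10 (15.2 ± 1.02), Clcf1 (10.1 ± 0.754), Lif (7.94 ± 0.336), Csf2 (1.71 ± 0.283), Il11 (1.54 ± 0.345), Tslp (0.354 ± 0.0623) and Il6 (0.270 ± 0.189). Csf2 and Il11 overlapped in that order, as did Tslp and Il6, while all other neighbours were apart in every library. Csf3 lay above 89.4% of the 12360 genes that entered the tests and Csf1 above 83.0%, while Il6 lay above 4.21%. Csf3 and Csf1 kept the first and second place by mean FPKM in all 4 groups. The place of Il10 moved most among the abundant genes, from an FPKM of 15.2 to 2.61 ± 0.554 with MDM, where Csf2 (8.82 ± 1.44), Lif (7.21 ± 0.425), Clcf1 (5.10 ± 0.321) and Il11 (4.21 ± 0.685) stood above it. Clcf1 and Il11 overlapped in the MDM libraries, Csf2 and Clcf1 overlapped with both kinds of TAM, and Lif and Il10 overlapped with MiaTAM.

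**Figure D1:**
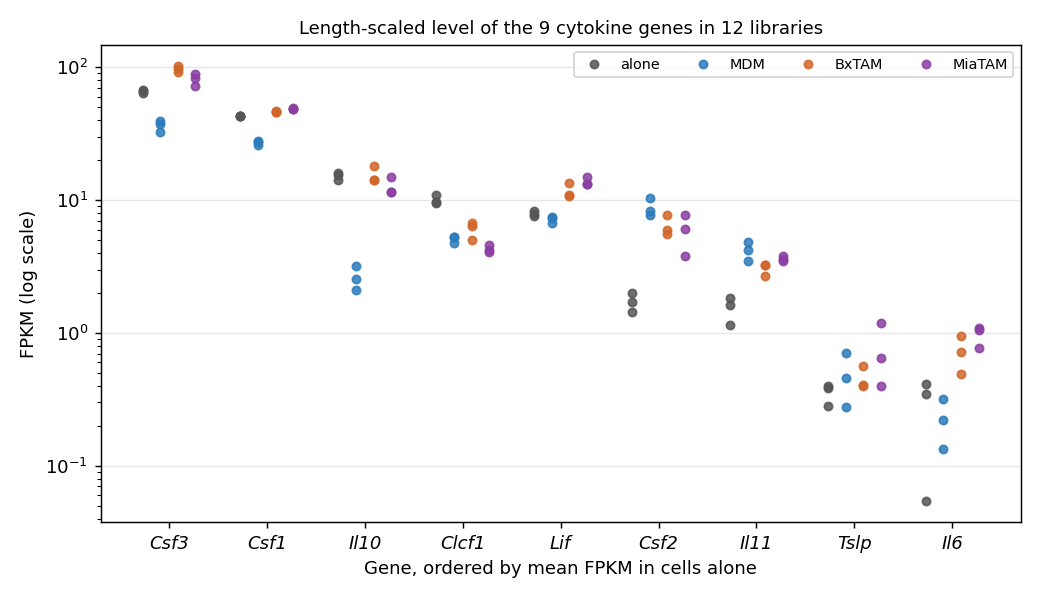
Deposited FPKM (log axis) of the 9 cytokine genes, 1 point per library, with 4 groups of 3 libraries and genes ordered by their mean in cells alone. Csf3 and Csf1 are highest in every group, Il10 falls from a mean of 15.2 to 2.61 in the MDM libraries, and Tslp and Il6 lie at the bottom.

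Not all members could be tested. A gene entered the tests where enough libraries reached 0.544 CPM, and 8 of the 9 did. Csf1, Csf2, Csf3, Il11, Lif, Clcf1 and Il10 were at or above that level in 12 libraries. Il6 reached it in 5 libraries, 2 of BxTAM and 3 of MiaTAM, and in none of the others, so it entered only through the groups in which it was high. Tslp reached it in none and was not tested. No other annotated gene overlaps any of the 9.

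Across the 6 comparisons, changes were log2 fold changes ± standard error from edgeR's quasi-likelihood test, called at a Benjamini-Hochberg adjusted p under 0.05 over all 12360 genes. Many genes of the whole table were called, so counts of members are read against that share. With MDM against cells alone, 2 of 8 tested members rose, where 32.0% of all tested genes rose, and 4 fell, where 33.1% fell. With BxTAM against cells alone, 6 rose (30.0% of all genes) and 1 fell (30.9%). With MiaTAM against cells alone, 6 rose (31.4%) and 1 fell (33.7%), and the comparisons with cells alone share those controls. With BxTAM against MDM, 5 rose (17.4%) and 1 fell (17.3%), and with MiaTAM against MDM, 5 rose (19.8%) and 1 fell (21.1%), these comparisons sharing the MDM libraries. With MiaTAM against BxTAM, 1 rose (11.0%) and 2 fell (13.3%). The libraries did not overlap between the groups for 7 of 8 members with MDM (68.9% of all genes), BxTAM (65.9%) and MiaTAM (67.2%) against cells alone, for 7 with BxTAM (47.9%) and MiaTAM (49.0%) against MDM, and for 4 with MiaTAM against BxTAM (38.6%). The median log2 change of the 8 members was -0.47 with MDM, 0.575 with BxTAM and 0.562 with MiaTAM against cells alone, and 0.725 with BxTAM and 0.88 with MiaTAM against MDM, while the median over all tested genes was between -0.01 and 0.01 in each comparison. The single members called lower with BxTAM or MiaTAM than with MDM (Il11 and Csf2) and higher with MiaTAM than with BxTAM (Lif) were no longer called without 1 or another library, as given for each gene. Since Il6 entered through the TAM groups, these counts and medians describe the 8 tested genes and support nothing further.

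**Figure D2:**
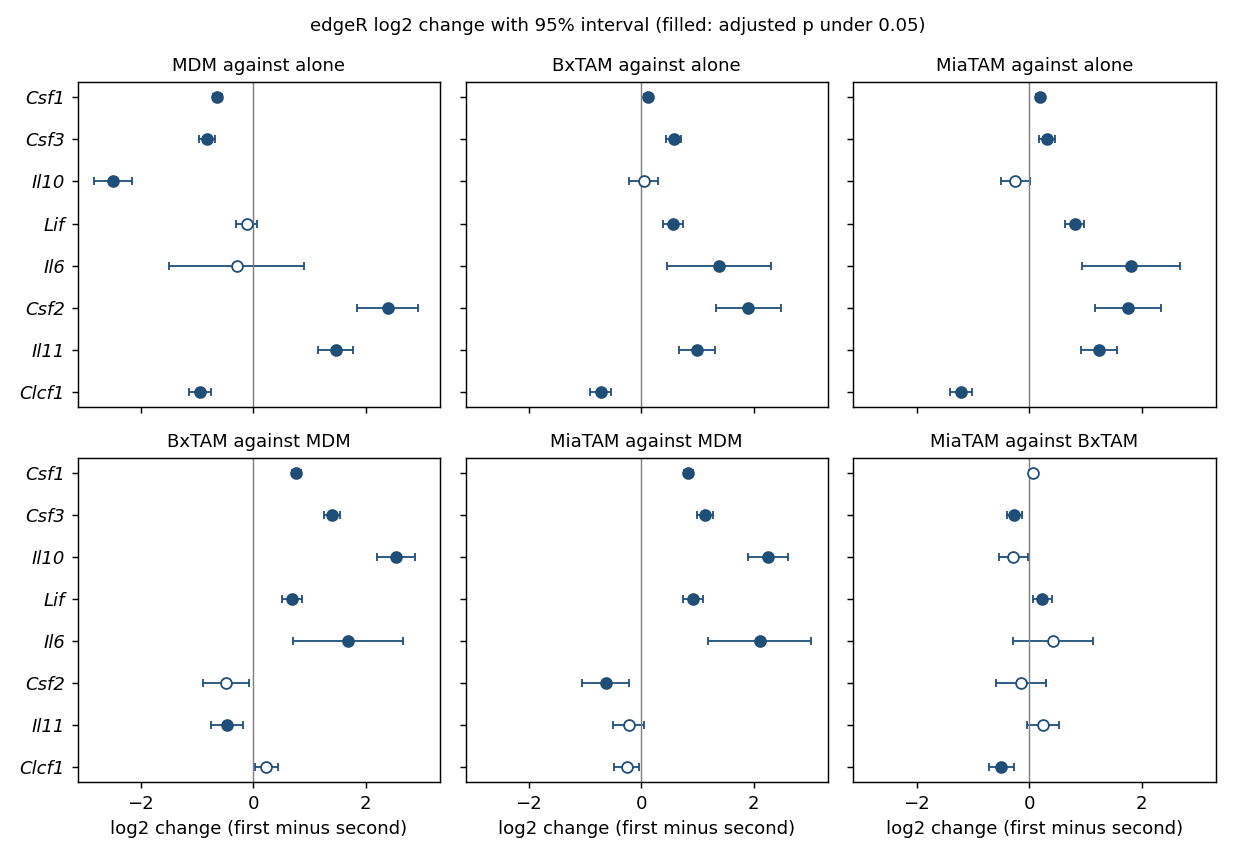
Log2 change of the 8 tested cytokine genes in each of the 6 comparisons, with 95% intervals, 3 libraries against 3; filled points passed the adjusted p threshold of 0.05. Csf1, Csf3 and Il10 lie below 0 with MDM against cells alone and above 0 with both TAM groups against MDM, while Csf2 and Il11 lie above 0 in all 3 co-cultures against cells alone.

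Among the colony-stimulating factors, Csf1 (chr2:210522375-210550560 in Rnor_6.0, the build of the files) was lower with MDM and slightly higher with both TAM groups. Its libraries stood at 185, 184 and 188 CPM in cells alone, at 114, 121 and 121 with MDM, at 206, 202 and 198 with BxTAM and at 209.7, 212 and 215 with MiaTAM. The libraries of the 4 groups did not overlap anywhere, with the order MDM, cells alone, BxTAM and MiaTAM. Csf1 fell 1.56-fold with MDM (-0.64 ± 0.04, adjusted p = 5.85e-12). Against cells alone it rose only 1.09-fold with BxTAM (0.12 ± 0.04, adjusted p = 0.00648) and 1.15-fold with MiaTAM (0.20 ± 0.04, adjusted p = 8.86e-05). Against MDM it was 1.70-fold higher with BxTAM (0.77 ± 0.04, adjusted p = 3.81e-12) and 1.79-fold higher with MiaTAM (0.84 ± 0.04, adjusted p = 9.72e-13). The difference between the TAM groups was 0.07 (95% interval -0.003 to 0.15, adjusted p = 0.155) and was not called.

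Csf3 (chr10:86616785-86619157) was also lowest with MDM, with a wider spread between groups. It stood at 82.0, 83.9 and 86.8 CPM in cells alone, at 48.9, 42.8 and 51.3 with MDM, at 132, 126 and 119.6 with BxTAM and at 114, 107 and 93.7 with MiaTAM. Every MDM library was below every library of cells alone, and every TAM library was above them, the BxTAM libraries highest. Csf3 fell 1.76-fold with MDM (-0.82 ± 0.07, adjusted p = 1.76e-09). It rose 1.495-fold with BxTAM (0.58 ± 0.06, adjusted p = 1.29e-07) and 1.25-fold with MiaTAM (0.32 ± 0.06, adjusted p = 0.000231) against cells alone. Against MDM the rise was 2.64-fold with BxTAM (1.40 ± 0.07, adjusted p = 3.45e-12), where 0.583% of all tested genes changed by as much, and 2.20-fold with MiaTAM (1.14 ± 0.07, adjusted p = 7.77e-11). Csf3 was also 1.20-fold lower with MiaTAM than with BxTAM (-0.26 ± 0.06, adjusted p = 0.00532).

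Csf2 (chr10:39602089-39604070), by contrast, was scarce in cells alone and higher in every co-culture. Because Csf2 and Il11 rose together in all co-cultures, and Il6 with both TAM groups, the sequence before their annotated start is printed for these 3 genes, from 250 to 51 bases upstream, as RefSeq gives it on assembly GRCr8 and in the direction of the gene. Such windows were matched for 4 of the 9 members, the fourth being Tslp. Capitals mark matches to motifs searched on both strands, which do not overlap each other here. The Csf2 window (chr10:38889724-38889923, minus strand) reads as follows.
Csf2: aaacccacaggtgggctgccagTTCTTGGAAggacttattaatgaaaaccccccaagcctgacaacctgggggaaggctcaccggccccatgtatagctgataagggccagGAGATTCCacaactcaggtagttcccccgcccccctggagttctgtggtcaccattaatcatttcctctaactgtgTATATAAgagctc
The capitals are a STAT-type motif (TTCNNNGAA) whose first base lies 228 bases before the start, the core of the CK-1 element (GAGATTCC), known from cytokine genes, 139 bases before it, and a TATA-type motif (TATATAA) 63 bases before it. Of 33469 RefSeq windows of the same length, 6.29% hold the first, 0.553% the second and 2.64% the third.

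Csf2 stood at 0.625, 0.867 and 0.745 CPM in cells alone (42 counts in all), at 3.40, 3.75 and 4.62 with MDM (224 counts), at 2.47, 3.39 and 2.64 with BxTAM (153 counts) and at 2.66, 3.37 and 1.68 with MiaTAM (138 counts). Each co-culture library was above every library of cells alone, and the MDM libraries were above all others by a small margin. Csf2 rose 5.24-fold with MDM (2.39 ± 0.26, adjusted p = 7.42e-08), a change as large as in 0.599% of all tested genes. It rose 3.74-fold with BxTAM (1.90 ± 0.28, adjusted p = 5.01e-06) and 3.38-fold with MiaTAM (1.76 ± 0.28, adjusted p = 1.53e-05). Against MDM it was 1.55-fold lower with MiaTAM (-0.63 ± 0.20, adjusted p = 0.0169). That call was lost without MDM replicate 3 (-0.49, adjusted p = 0.104), without MiaTAM replicate 3 (-0.40, adjusted p = 0.119) and by DESeq2's Wald test (-0.61, adjusted p = 0.0634). With BxTAM against MDM the difference was -0.48 (95% interval -0.90 to -0.07, adjusted p = 0.0650) and missed the threshold, which it passed without BxTAM replicate 2 (-0.63, adjusted p = 0.0424), without MiaTAM replicate 2 (-0.48, adjusted p = 0.0448) and without MiaTAM replicate 3 (-0.48, adjusted p = 0.0371). It also passed with no low-count filter (-0.49, adjusted p = 0.0435) and with only these groups in the fit (-0.48, adjusted p = 0.0368). The TAM groups differed by -0.15 (95% interval -0.60 to 0.31, adjusted p = 0.666).

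**Figure D3:**
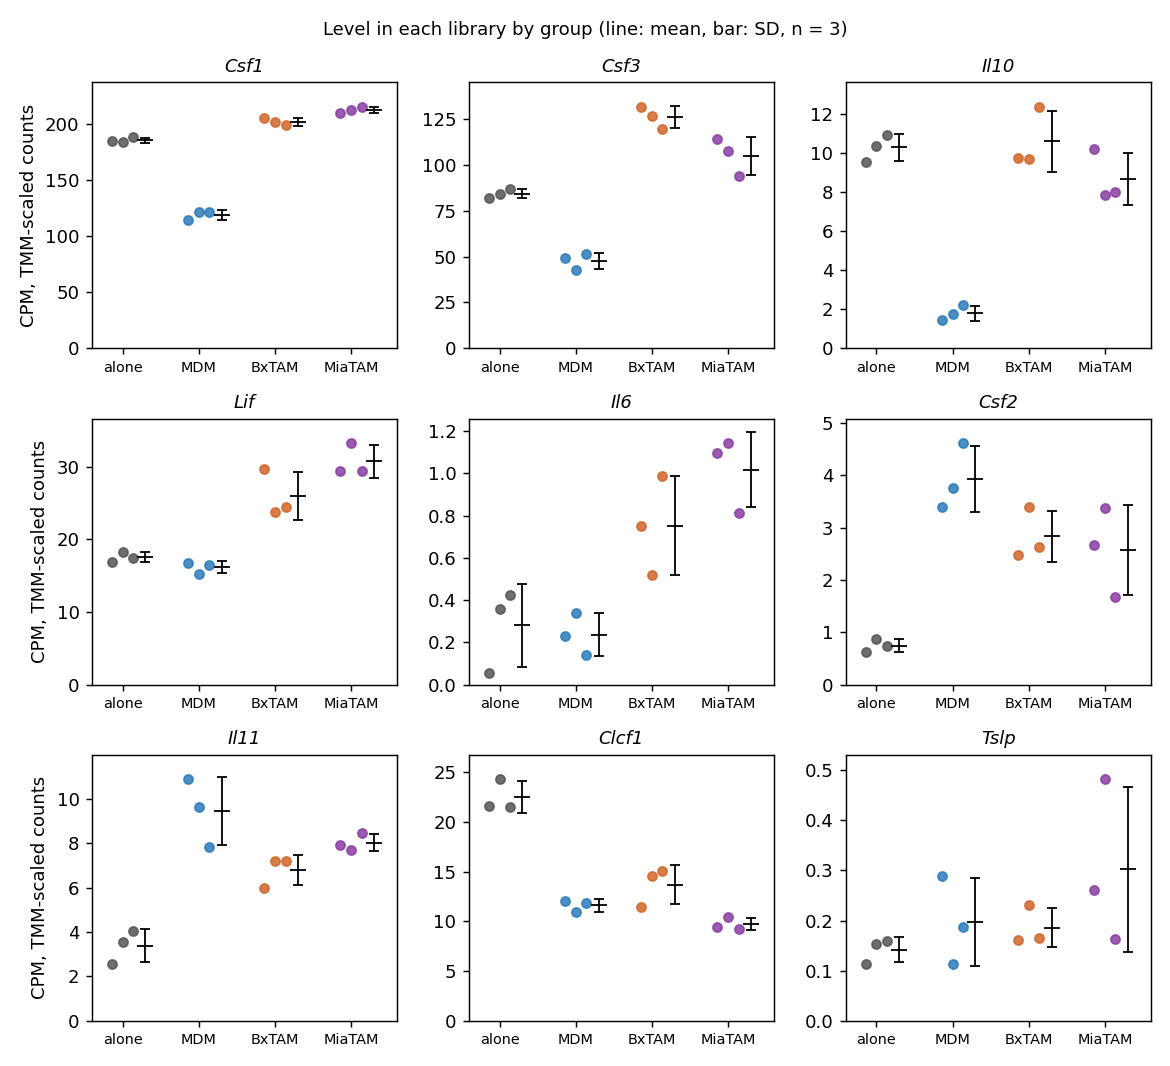
CPM of TMM-scaled counts of each of the 9 cytokine genes, 1 panel per gene with its own axis from 0, 1 point per library in 4 groups of 3, with a line at the group mean and a bar for its SD. The MDM libraries are lowest for Csf1, Csf3 and Il10 and highest for Csf2, the cells alone are highest for Clcf1, and the TAM libraries are highest for Lif and Il6.

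Il6 (chr4:3043231-3047807), the founding member of the gp130 cytokines, was near the limit of detection without TAM. Its RefSeq window (chr4:5894626-5894825 in GRCr8, minus strand), shown because Il6 rose with both TAM groups, reads as follows.
Il6: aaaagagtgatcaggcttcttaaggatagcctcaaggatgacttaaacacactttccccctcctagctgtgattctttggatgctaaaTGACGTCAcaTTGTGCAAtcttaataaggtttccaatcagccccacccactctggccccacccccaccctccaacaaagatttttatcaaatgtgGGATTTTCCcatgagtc
The capitals are a cAMP-response motif (TGACGTCA) 162 bases before the start, a C/EBP-type motif (TTGNGCAA) 152 bases before it and an NF-kB-type motif (GGANTTTCC) 67 bases before it. They are held by 0.944%, 1.94% and 0.840% of the RefSeq windows, respectively. A match describes letters in this window and no binding was measured.

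Il6 had 1, 7 and 8 counts in the libraries of cells alone, 4, 6 and 3 with MDM, 14, 9 and 18 with BxTAM and 21, 19 and 15 with MiaTAM. Every TAM library held more than every other library, and cells alone overlapped with MDM. In CPM the group means were 0.280 ± 0.196 (SD, n = 3) for cells alone, 0.237 ± 0.1005 for MDM, 0.752 ± 0.236 for BxTAM and 1.02 ± 0.179 for MiaTAM. Against cells alone Il6 rose 2.61-fold with BxTAM (1.38 ± 0.45, adjusted p = 0.0111) and 3.50-fold with MiaTAM (1.81 ± 0.42, adjusted p = 0.000805). Against MDM it rose 3.21-fold with BxTAM (1.68 ± 0.47, adjusted p = 0.00824) and 4.30-fold with MiaTAM (2.10 ± 0.44, adjusted p = 0.000654). The first BxTAM call was lost without cells alone replicate 1 (0.95, adjusted p = 0.0603) or BxTAM replicate 3 (1.14, adjusted p = 0.0641), and the BxTAM call against MDM without MDM replicate 3 (1.38, adjusted p = 0.0509). With only the groups compared in the fit, neither BxTAM difference could be tested. Il6 then reached the filter level in only 2 libraries. Since Il6 entered the tests only through the TAM libraries, in which it was high, these p-values describe its values and are no independent support for a difference. MDM differed from cells alone by -0.30 (95% interval -1.5 to 0.90, adjusted p = 0.668), and the TAM groups differed by 0.42 (95% interval -0.29 to 1.13, adjusted p = 0.395), intervals that leave sizeable changes undetectable at this depth.

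Lif (chr14:84482674-84500642), a gp130 cytokine of injured nerve, was also higher with TAM than in cells alone or with MDM. It stood at 16.9, 18.3 and 17.4 CPM in cells alone, at 16.8, 15.3 and 16.5 with MDM, at 29.8, 23.8 and 24.4 with BxTAM and at 29.4, 33.3 and 29.5 with MiaTAM. All TAM libraries were above the other 6, while BxTAM replicate 1 lay within the range of MiaTAM. Lif rose 1.48-fold with BxTAM (0.57 ± 0.09, adjusted p = 7.57e-06) and 1.75-fold with MiaTAM (0.81 ± 0.08, adjusted p = 4.54e-08) against cells alone. Against MDM the rise was 1.61-fold (0.68 ± 0.09, adjusted p = 3.16e-06) and 1.90-fold (0.92 ± 0.08, adjusted p = 3.73e-08). With MDM against cells alone the difference was -0.11 (95% interval -0.30 to 0.07, adjusted p = 0.269). Lif was called 1.18-fold higher with MiaTAM than with BxTAM (0.24 ± 0.08, adjusted p = 0.0363), a call lost without BxTAM replicate 2 (0.18, adjusted p = 0.173), BxTAM replicate 3 (0.20, adjusted p = 0.145) or MiaTAM replicate 2 (0.18, adjusted p = 0.168), by limma on FPKM (0.23, adjusted p = 0.0559) and with only these groups in the fit (0.24, adjusted p = 0.0539).

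Il11 (chr1:72635267-72643255), a gp130 cytokine with its own receptor chain, rose in all 3 co-cultures. Its RefSeq window (chr1:78098372-78098571 in GRCr8, plus strand) is given for comparison with that of Csf2, which moved with it.
Il11: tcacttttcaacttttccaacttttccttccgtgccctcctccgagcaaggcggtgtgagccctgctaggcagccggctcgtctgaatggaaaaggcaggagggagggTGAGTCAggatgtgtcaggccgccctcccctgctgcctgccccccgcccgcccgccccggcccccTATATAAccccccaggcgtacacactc
Its capitals are an AP-1-type motif (TGANTCA) 142 bases before the start, found in 5.22% of the RefSeq windows, and the same TATA-type motif as in Csf2, here 77 bases before the start. The STAT-type and CK-1 letters of the Csf2 window were not found in it, nor was the AP-1-type motif in that of Csf2.

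Il11 stood at 2.56, 3.57 and 4.04 CPM in cells alone, at 10.9, 9.65 and 7.84 with MDM, at 6.01, 7.19 and 7.20 with BxTAM and at 7.93, 7.71 and 8.45 with MiaTAM. Each co-culture library was above all of cells alone, and MDM overlapped with MiaTAM but not with BxTAM. Il11 rose 2.75-fold with MDM (1.46 ± 0.15, adjusted p = 3.50e-08), 1.99-fold with BxTAM (0.99 ± 0.16, adjusted p = 1.69e-05) and 2.36-fold with MiaTAM (1.24 ± 0.15, adjusted p = 6.04e-07). With BxTAM it was 1.38-fold lower than with MDM (-0.47 ± 0.13, adjusted p = 0.00950), and that call was lost without MDM replicate 1 (-0.36, adjusted p = 0.0636) or BxTAM replicate 1 (-0.39, adjusted p = 0.0549). With MiaTAM against MDM the difference was -0.23 (95% interval -0.49 to 0.04, adjusted p = 0.175), which was called only without MDM replicate 3 (-0.35, adjusted p = 0.0391). MiaTAM against BxTAM gave 0.24 (95% interval -0.04 to 0.53, adjusted p = 0.207).

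Clcf1 (chr1:219468675-219472654), which encodes a cytokine that acts through the receptor of ciliary neurotrophic factor, was the 1 of 8 tested members that fell in all co-cultures. It stood at 21.6, 24.3 and 21.5 CPM in cells alone, at 12.05, 10.9 and 11.9 with MDM, at 11.4, 14.5 and 15.0 with BxTAM and at 9.49, 10.4 and 9.27 with MiaTAM. All co-culture libraries were below those of cells alone, and the MiaTAM libraries were the lowest. Clcf1 fell 1.94-fold with MDM (-0.95 ± 0.09, adjusted p = 1.81e-08), 1.65-fold with BxTAM (-0.72 ± 0.09, adjusted p = 9.03e-07) and 2.32-fold with MiaTAM (-1.21 ± 0.10, adjusted p = 7.99e-10). It was 1.41-fold lower with MiaTAM than with BxTAM (-0.49 ± 0.10, adjusted p = 0.00199). Against MDM neither TAM group was called, at 0.23 for BxTAM (95% interval 0.02 to 0.44, adjusted p = 0.0781) and -0.26 for MiaTAM (95% interval -0.48 to -0.04, adjusted p = 0.0538). The BxTAM difference passed without BxTAM replicate 1 (0.35, adjusted p = 0.00870), and the MiaTAM difference passed without BxTAM replicate 1 (-0.26, adjusted p = 0.0265) or MiaTAM replicate 2 (-0.31, adjusted p = 0.0443), with no low-count filter (-0.26, adjusted p = 0.0435) and with only these groups in the fit (-0.25, adjusted p = 0.0449).

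Il10 (chr13:47739526-47743392), the anti-inflammatory cytokine gene, had the largest fold change among the members, and this lay between MDM and the other 3 groups. It stood at 9.54, 10.4 and 10.9 CPM in cells alone (576 counts in all), at 1.44, 1.76 and 2.19 with MDM (103 counts), at 9.71, 9.66 and 12.4 with BxTAM (574 counts) and at 10.2, 7.83 and 7.97 with MiaTAM (472 counts). The 3 MDM libraries stood far below the other 9, which overlapped. Il10 was 5.62-fold lower with MDM than in cells alone (-2.49 ± 0.16, adjusted p = 3.97e-11), and 0.494% of all tested genes changed as much. Against MDM it was 5.79-fold higher with BxTAM (2.53 ± 0.16, adjusted p = 2.38e-10) and 4.75-fold higher with MiaTAM (2.25 ± 0.17, adjusted p = 2.16e-09), changes matched by 0.0324% and 0.0728% of all tested genes.

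The TAM co-cultures were not called different from cells alone for Il10. The difference was 0.04 with BxTAM (95% interval -0.21 to 0.29, adjusted p = 0.785) and -0.24 with MiaTAM (95% interval -0.50 to 0.02, adjusted p = 0.0914). MiaTAM against BxTAM gave -0.28 (95% interval -0.54 to -0.03, adjusted p = 0.101). Without MiaTAM replicate 1, the highest library of its group, Il10 with MiaTAM was called lower than in cells alone (-0.38, adjusted p = 0.0167) and lower than with BxTAM (-0.42, adjusted p = 0.0239).

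Tslp (chr18:25613831-25617361) was barely detected. Its libraries held 2, 3 and 3 counts in cells alone, 5, 2 and 4 with MDM, 3, 4 and 3 with BxTAM and 5, 8 and 3 with MiaTAM. In counts all groups overlapped, while in CPM the BxTAM (0.161 to 0.230) and MiaTAM (0.163 to 0.482) libraries lay just above those of cells alone (0.114 to 0.160). The ratio of its MiaTAM to its alone level was 2.06 with a 95% counting interval of 0.834 to 5.57, so no difference was detectable at this depth. The MDM ratio to cells alone was 1.36 (0.500 to 3.91) and the BxTAM ratio 1.29 (0.459 to 3.76), intervals that cover counting error only.

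The receptors of these cytokines were very uneven in the same libraries. Of 18 receptor genes listed, 9 entered the tests, and in cells alone they were led on the FPKM scale by Il6st, the shared gp130 subunit (48.2 ± 3.13, SD, n = 3), Il11ra1, the Il11 receptor chain (18.1), Osmr, the oncostatin M receptor chain (15.4 ± 0.0965), and Il10rb, the shared chain of the interleukin-10 family (9.80). The chain that binds Il6 itself, Il6r, had an FPKM of 6.74. The other chains were mostly missing. Csf2rb, Il7r and Il20ra had 0 counts in 12 libraries (upper limit 0.0136 CPM). Csf3r had 3 counts, all in 1 BxTAM library, Lifr had 7, Cntfr 23, Il10ra 49 and Csf2ra 91. Csf3, the most abundant member by FPKM, and Lif were therefore read in libraries with almost no transcript of their specific receptor chains.

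Csf1r, the Csf1 receptor and a macrophage marker, was low but rose in each co-culture. Its level was 3.18 to 3.57 CPM in cells alone, 5.32 to 5.94 with MDM, 7.01 to 8.15 with BxTAM and 8.50 to 10.7 with MiaTAM. The 4 groups did not overlap. Against cells alone the change was 0.76 ± 0.14 with MDM (adjusted p = 5.05e-05), 1.20 ± 0.13 with BxTAM (adjusted p = 7.98e-08) and 1.47 ± 0.12 with MiaTAM (adjusted p = 2.30e-09). The summed macrophage markers stand in the same order across the groups, but Csf1r is itself 1 of the 20 markers summed. Apart from Csf1r, the means of Cd14, Cd68 and Cd74 also rose from cells alone through MDM and BxTAM to MiaTAM. For Cd14 they were 4.43, 6.38, 6.97 and 7.34 CPM. The means of Itgam and Mertk, the other tested macrophage markers, did not follow that order. Between the co-cultures, neither Cd14 nor Cd74 was called different. The part of macrophage transcripts in the Csf1r values was not tested.

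The gp130 chain and its partners Osmr and Il6r were lower with MDM, while Il11ra1 was higher. Il6st fell with MDM (-0.27 ± 0.05, adjusted p = 4.85e-05), from 148.7 ± 9.56 to 123 ± 1.12 CPM, and was higher with BxTAM (0.27 ± 0.05, adjusted p = 0.000147) and MiaTAM (0.17 ± 0.05, adjusted p = 0.00629) than with MDM. Osmr fell in all 3 co-cultures, most with MDM (-0.93 ± 0.06, adjusted p = 2.46e-11), from 50.4 ± 0.524 to 26.4 ± 1.08 CPM. Il6r fell with MDM against cells alone (-0.38 ± 0.07, adjusted p = 8.20e-05). Il11ra1 instead rose against cells alone with MDM (0.25 ± 0.07, adjusted p = 0.00219), BxTAM (0.22 ± 0.07, adjusted p = 0.00715) and MiaTAM (0.34 ± 0.07, adjusted p = 0.000144). Il20rb, a receptor chain for interleukin-10 family cytokines such as the product of Il19, fell by 1.92, 1.33 and 1.51 on the log2 scale with MDM, BxTAM and MiaTAM against cells alone. Over the 9 tested receptor genes, 4 rose and 4 fell with MDM against cells alone, where 32.0% of all tested genes rose and 33.1% fell. With BxTAM 5 rose (30.0% of all genes) and 2 fell (30.9%), and with MiaTAM 5 rose (31.4%) and 3 fell (33.7%). Against MDM, 5 rose with BxTAM (17.4%) and 3 with MiaTAM (19.8%).

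**Figure D4:**
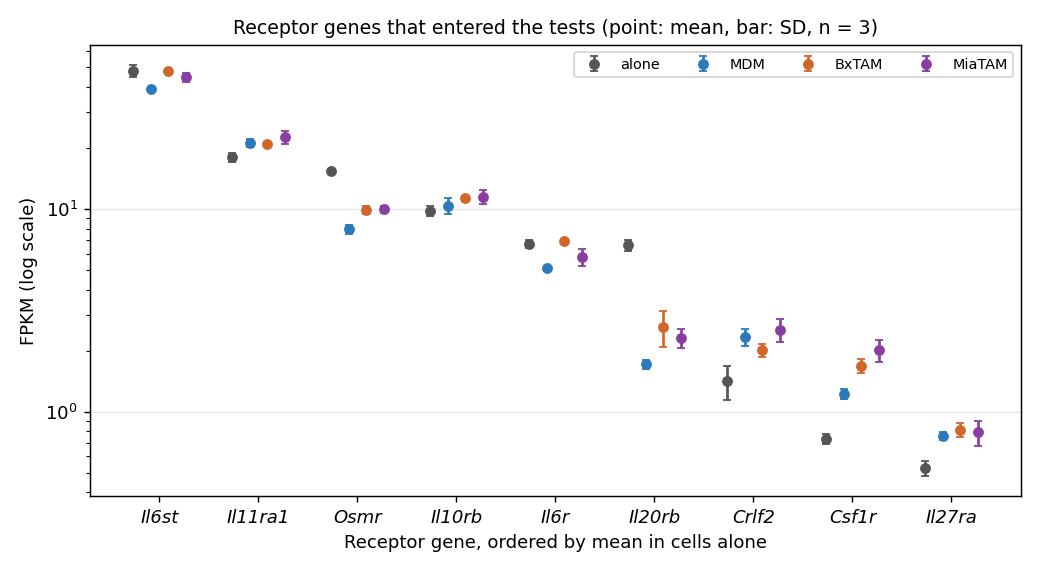
Deposited FPKM (log axis) of the 9 receptor genes that entered the tests, ordered by their mean in cells alone; points are group means and bars SD over 3 libraries. Il6st is highest in every group, Osmr and Il20rb are highest in cells alone, and Csf1r rises from a mean of 0.733 in cells alone to 2.01 with MiaTAM.

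Beyond the members, 86 symbols of the same pathways had been listed as other ligands, receptors, kinases and STATs, feedback genes, STAT3 target genes and regulators of AU-rich messenger RNA. Of these, 82 were in the table and 63 entered the tests. With MDM against cells alone 20 rose (32.0% of all tested genes did) and 18 fell (33.1%), which is near the share of all genes. With BxTAM 26 rose (30.0%) and 14 fell (30.9%), and with MiaTAM 28 rose (31.4%) and 17 fell (33.7%). Against MDM, 23 rose (17.4%) and 9 fell (17.3%) with BxTAM, and 24 rose (19.8%) and 9 fell (21.1%) with MiaTAM. With MiaTAM against BxTAM, 10 rose (11.0%) and 6 fell (13.3%). In this last comparison, 6 rose without BxTAM replicate 3 or without MiaTAM replicate 2. The median log2 change of the 63 genes lay between -0.01 and 0.09 in the 6 comparisons.

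Among the other ligands, Il19, an interleukin-10 family cytokine gene, showed the same low point with MDM as Il10. Its level was 3.81 ± 0.264 CPM in cells alone, 0.770 ± 0.129 with MDM, 2.24 ± 0.387 with BxTAM and 1.70 ± 0.228 with MiaTAM. It fell with MDM (-2.31 ± 0.20, adjusted p = 4.17e-09) and was higher with BxTAM (1.55 ± 0.23, adjusted p = 2.21e-05) and MiaTAM (1.16 ± 0.24, adjusted p = 0.000609) than with MDM. In contrast to Il10, Il19 was also lower than in cells alone with BxTAM (-0.76 ± 0.17, adjusted p = 0.000539) and MiaTAM (-1.15 ± 0.18, adjusted p = 8.59e-06). The cytokine genes Il34, Il5 and Il22 had 0 counts in 12 libraries, and Osm had 4.

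Of the 10 kinase and STAT genes, Stat6, the transducer of interleukin-4 signals, had the smallest p in each comparison with cells alone. It fell with MDM (-1.10 ± 0.05, adjusted p = 1.63e-13), with BxTAM (-0.64 ± 0.05, adjusted p = 5.18e-10) and with MiaTAM (-0.70 ± 0.05, adjusted p = 1.23e-10) against cells alone. Stat3, the main transducer of the gp130 cytokines and interleukin-10, fell by 0.32 on the log2 scale with MDM (adjusted p = 1.91e-07), by 0.24 with BxTAM (adjusted p = 1.08e-05) and by 0.15 with MiaTAM (adjusted p = 0.00156) against cells alone. It was higher with MiaTAM than with MDM (0.17 ± 0.04, adjusted p = 0.000803). Stat5a, which transduces Csf2 signals among others, was higher with BxTAM (0.52 ± 0.08, adjusted p = 2.67e-05) and MiaTAM (0.68 ± 0.08, adjusted p = 6.87e-07) than with MDM.

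The feedback list held 14 tested genes, of which 4 rose (32.0% of all tested genes did) and 2 fell (33.1%) with MDM against cells alone. With BxTAM 5 rose (30.0%) and 1 fell (30.9%), and with MiaTAM 8 rose (31.4%) and 2 fell (33.7%), the rises with MDM and BxTAM being near the shares of all genes. Cish, a STAT5-induced inhibitor of cytokine signalling, rose with MDM (1.26 ± 0.15, adjusted p = 2.39e-07), BxTAM (1.18 ± 0.15, adjusted p = 9.67e-07) and MiaTAM (1.45 ± 0.15, adjusted p = 2.86e-08). Socs3, the inhibitor of gp130 signalling, was an abundant transcript, with an FPKM of 349 ± 1.48 in cells alone. With MiaTAM, Socs3 was higher than with MDM (0.36 ± 0.05, adjusted p = 6.80e-06) and than with BxTAM (0.20 ± 0.05, adjusted p = 0.00593).

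The listed STAT3 target genes moved in both directions. Of 15 tested, 7 rose and 4 fell with MDM against cells alone, beside 32.0% and 33.1% of all tested genes. With BxTAM 9 rose and 2 fell (30.0% and 30.9% of all genes), and with MiaTAM 9 rose and 2 fell (31.4% and 33.7%). Cebpd, a C/EBP transcription factor of the acute-phase response, had the low point with MDM that Csf1, Csf3 and Il10 also had. Its level was 18.3 ± 0.745 CPM in cells alone, 7.39 ± 1.02 with MDM, 17.2 ± 1.75 with BxTAM and 17.98 ± 3.78 with MiaTAM, a fall of 1.31 on the log2 scale with MDM (adjusted p = 2.19e-08). Timp1, a protease inhibitor, rose with BxTAM (0.40 ± 0.05, adjusted p = 1.10e-06) and MiaTAM (0.78 ± 0.05, adjusted p = 4.76e-11) against cells alone. Birc5, a gene of cell division as well as a STAT3 target, fell with MDM (-0.89 ± 0.08, adjusted p = 1.96e-09), BxTAM (-2.03 ± 0.08, adjusted p = 2.08e-14) and MiaTAM (-1.89 ± 0.08, adjusted p = 4.83e-14).

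Messenger RNAs of several of these cytokines are known to carry AU-rich or stem-loop elements that are read by RNA-degrading proteins. Of 10 tested regulators, 4 rose and 2 fell with MDM against cells alone (32.0% and 33.1% of all genes). With BxTAM 3 rose and 3 fell (30.0% and 30.9%), and with MiaTAM 3 rose and 5 fell (31.4% and 33.7%). Against MDM, 2 rose and 2 fell with BxTAM (17.4% and 17.3%), and 1 rose and 5 fell with MiaTAM (19.8% and 21.1%). Zc3h12a, which encodes Regnase-1, an RNase known to cut Il6 messenger RNA, rose with BxTAM (0.74 ± 0.06, adjusted p = 8.86e-10) and MiaTAM (0.78 ± 0.06, adjusted p = 3.47e-10) against cells alone. Its level was 36.2 ± 2.50 CPM in cells alone, 34.5 ± 0.901 with MDM, 60.4 ± 2.54 with BxTAM and 62.0 ± 2.74 with MiaTAM. Il6 was also higher with both TAM groups, but it entered the tests only through those libraries, and a link between these genes was not tested. Zfp36, which encodes tristetraprolin, a protein that promotes decay of AU-rich messenger RNA, was lower with BxTAM (-0.65 ± 0.07, adjusted p = 9.62e-07) and MiaTAM (-0.78 ± 0.07, adjusted p = 7.52e-08) than with MDM. Zfp36l1, of the same list, was instead called higher in each co-culture than in cells alone. Its level was 43.0 ± 2.37 CPM in cells alone, 60.4 ± 1.91 with MDM, 65.9 ± 1.53 with BxTAM and 57.6 ± 0.813 with MiaTAM. Messenger RNA stability was not measured.

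As a description only, the genes whose log2 CPM over the 12 libraries was most like each member were listed from 10585 genes with a symbol and a mean of at least 1 CPM. Over these libraries, which share groups, Pearson's r with Csf1 was 0.986 for Tspan5, with Csf3 0.988 for Plscr1, with Il10 0.984 for Scrn1, with Il11 0.983 for Vwf, with Lif 0.975 for Abcg1, with Clcf1 0.970 for Gtf3c6, with Csf2 0.969 for Tspan15 and with Il6 0.920 for Fdx1. Il6, the member with the fewest counts among those tested, had the lowest of these values.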

How the data were processed

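Messenger RNA was measured in 12 rat Schwann cell libraries, grouped by their labels. Per the labels' protocols, a stranded kit for mRNA was used. The submitters' processing notes name HISAT2, StringTie 1.3.0, CASAVA and the build Rnor_6.0. The counting tool, strand setting and annotation release were not given in the sources used here. Gene counts are deposited without normalization, per the file headers, next to FPKM, for which the authors divided counts by gene length and library total.

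Counts were analysed with edgeR 4.0.16 under R 4.3.3: filterByExpr by group (12360 genes tested of 17963 with a count), TMM scaling with factors from 0.98 to 1.01, 1 quasi-likelihood fit of all 12 libraries with 1 mean per group and no replicate block (8 residual degrees of freedom), and Benjamini-Hochberg adjustment over all tested genes, with a threshold of 0.05. The standard error is the log2 change over the square root of F. The analysis was tested on simulated data. CPM compare groups within a gene, and FPKM compare genes. Alternatives were other scalings, DESeq2 1.42.0, limma 3.58.1 on log2(FPKM + 1), no filter, only the groups compared, a replicate block and leaving out each library. No library appeared to be deposited in duplicate. The design text speaks of 1 more kind of TAM, not analysed here.

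The members and lists were chosen with earlier results of these data known. All 9 members are named, with the listed receptors and, of each list, up to 3 called genes per comparison with the smallest p. Motif letters were searched in RefSeq windows (GRCr8).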

Additional observations from a re-analysis of the deposited data

How the results depend on the processing

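Of 331 log2 changes of members under other settings, 324 kept their direction and side of the threshold, 3 lost the call and 4 gained it. Of 576 with 1 library left out, 553 did so, 10 lost the call, 9 gained it and 4, all of differences not called, changed sign. These were Il6 with MDM against cells alone (-0.74 to 0.11, above 0 without cells alone replicate 3 or MDM replicate 3), Il10 with BxTAM against cells alone (-0.085 to 0.10, below 0 without BxTAM replicate 3) and Csf2 with MiaTAM against BxTAM (-0.37 to 0.086, above 0 without MiaTAM replicate 3). Members lower with MiaTAM than with MDM numbered 1, against 0 by DESeq2, 2 without a filter, 2 with only these groups in the fit and 0 to 2 with 1 library left out. For BxTAM against MDM, 1 became 2 without a filter, 2 with only these groups and 0 to 2. The 1 member higher with MiaTAM than with BxTAM became 0 by limma, 0 with only these groups and 0 to 1, and the 1 lower with MiaTAM than in cells alone became 1 to 2. Pathway genes higher with MiaTAM than with BxTAM numbered 10, against 6 with only these groups and 6 to 11 with 1 library left out, and all genes 1356 against 816 to 1437 (lowest without BxTAM replicate 2). The cause was not tested. On the log2(FPKM + 1) scale, the change of Il6 with MiaTAM against cells alone was 0.64, since the pseudocount compresses low levels. DESeq2 gave no adjusted p for Csf2 and Il6 with MiaTAM against BxTAM. With only the groups compared in the fit, Il6 was filtered out for MDM against cells alone. The same held for BxTAM against cells alone and BxTAM against MDM, so those Il6 calls were not tested in that setting. Counts limit Il6, Tslp and Csf2 most.

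Replicate numbers did not pair the libraries (correlation of deviations from -0.127 to 0.0892 over 18 same-numbered pairs, against -0.122 to 0.186 over 36 other pairs). With a replicate block, 3945 genes rose and 4101 fell with MDM against cells alone, and no call of a member changed.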
